A study of Drosophila melanogaster with 48 samples.

Results

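The response to menadione sodium bisulfite (MSB) of *D. melanogaster* lines from Zambia was compared with that of lines from cosmopolitan populations, as an interaction between treatment and geographic range. It rests on 47 of the 48 head RNA libraries of the study, from 12 lines. A gene's interaction is its log2 fold-change under stress in the Zambian lines less that in the cosmopolitan lines, so a positive value means a higher response in the Zambian lines. Of the 13957 genes in the count table, 13860 had a count in these libraries and 11047 passed the filter on low counts and were tested.

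The groups were 8 stress libraries and 8 control libraries of the 4 Zambian lines ZI197, ZI254, ZI273, and ZI418, and 15 stress libraries and 16 control libraries of the 8 cosmopolitan lines. The cosmopolitan lines are M9D3, M9N1, M12D3, and M12N3 from Germany, C2D3 and C2N1 from Cyprus, and KL01 and KL02 from Malaysia. M9, M12, and C2 are each a pair of nearly isogenic inbred lines, one with and one without a deletion at the metallothionein gene *MtnA*. The study reports more residual divergence within the M9 pair than within the M12 and C2 pairs. KL01 and KL02 are separate isofemale lines that also differ in the deletion. The Zambian lines are isofemale lines and all lack the deletion, whereas 4 of the 8 cosmopolitan lines carry it. Each library came from 60 heads of living males, which were 5 to 7 days old when exposure began. Stressed flies fed on food with 75 mM MSB while control flies had standard food. Both treatments lasted 18 to 20 h in the Zambian lines, which died faster, and 24 h in the cosmopolitan lines. Range and hours of exposure therefore cannot be told apart in any value below, and survivors alone were sampled.

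MSB is a quinone that cycles between its reduced and oxidized states in the cell and yields superoxide. Fly tissues meet such stress with glutathione S-transferases, antioxidant enzymes, and chaperones, and through the JNK and JAK-STAT pathways, while the fat body sets storage proteins and secreted immune peptides according to feeding and infection. The circadian clock runs on a loop in which *Clk* and *cyc* activate *per*, *tim*, *vri*, *Pdp1*, and *cwo*, whose products feed back on the loop.

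Total counts per library ran from 38848649 to 44869921 in Zambian stress, 38099104 to 63358011 in Zambian control, 29414147 to 53939743 in cosmopolitan stress, and 27223075 to 54987685 in cosmopolitan control libraries. The titles of the stress libraries list 1 for ZI197 and for ZI418 and 3 for ZI254 and for ZI273. The study's methods describe the same number of replicates for every line, which these titles do not match, and the titles were used here. The library left out, replicate 1 of M9N1 stress, held 3345 CPM, the count scaled to library size, on markers of the male reproductive tract, against 18.1 to 35.2 CPM in the others. Photoreceptor and neuron markers of the head were detected in full, with 29 of 29 phototransduction genes and 12 of 12 neuron markers in every group.

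In all, 62 genes, or 0.561% of those tested, had an interaction past an adjusted p of 0.05 (edgeR quasi-likelihood test with Benjamini-Hochberg adjustment). The response was higher in the Zambian lines for 35 of them, 0.317% of tested genes, and lower for 27, or 0.244%. Unadjusted, 1320 of the 11047 tested genes had a p under 0.05, the share to set beside the unadjusted count of each gene list below. With 1 response per line as the unit (limma, 4 lines against 8) the count was 0 at the same adjusted threshold and 732 unadjusted, and the smallest adjusted p was 0.104. With 1 response per background (4 against 5) it was again 0, with 691 unadjusted and a smallest adjusted p of 0.355, and DESeq2's Wald test called 161. The 62 thus hold against the spread between libraries after each line's own level is removed, and not against the spread between lines over all genes.

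Each range had a broad response of its own. The Zambian response called 4944 genes (44.8%), of which 2627 rose and 2317 fell. The cosmopolitan response called 6596 genes (59.7%), with 3610 up-regulated and 2986 downregulated, from about as deep but more numerous libraries. As a description across genes, which are not independent replicates, the log2 fold-change in the Zambian lines had a slope of 0.864 on that in the cosmopolitan lines and a Pearson r of 0.890. The median absolute interaction was 0.74 among the 62 called genes and 0.10 among all tested genes, and 5492 of the tested genes (49.7%) had a positive interaction.

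**Figure D1:**
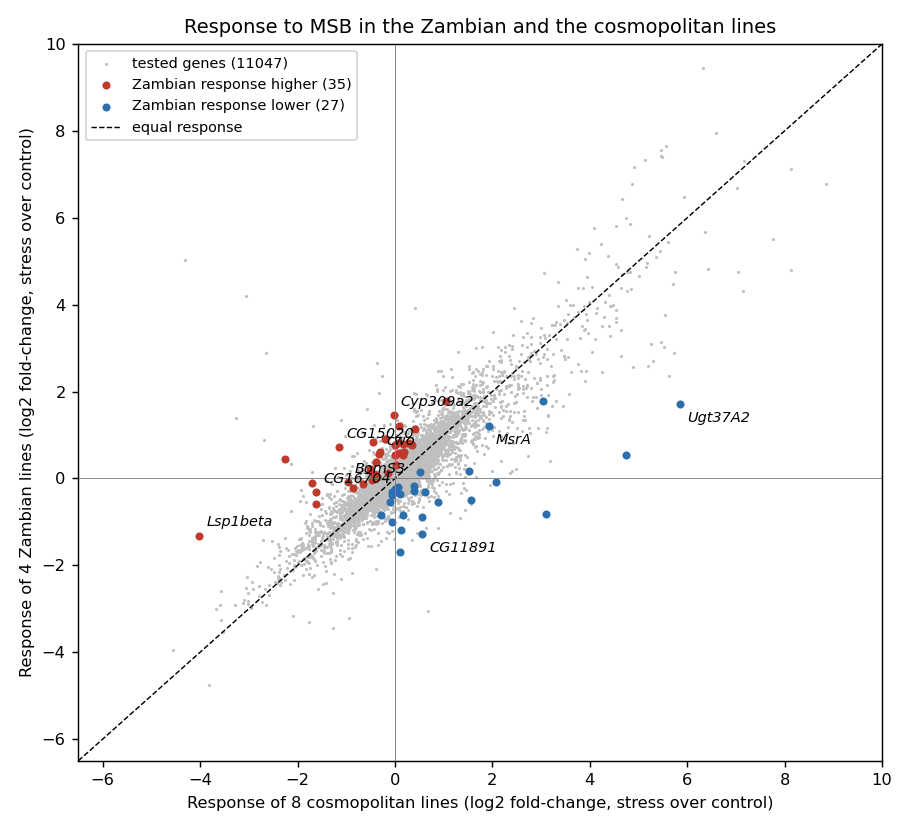
Each point is a tested gene, with its log2 fold-change under MSB in the 4 Zambian lines (vertical axis) against that in the 8 cosmopolitan lines (horizontal axis), and the dashed line marks equal responses. The 35 genes with a higher Zambian response (red) and the 27 with a lower one (blue) lie off the line, and *Ugt37A2* and *Lsp1beta* are far from it at 1.72 against 5.85 and -1.31 against -4.01.

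The size of the response over all genes was compared next. The slope of a line's log2 responses on the mean of the other lines was 0.96 in ZI197, 0.81 in ZI254, 0.89 in ZI273, and 1.10 in ZI418, against a range of 0.64 in KL02 to 1.21 in M9N1 among the 8 cosmopolitan lines. The means were 0.94 ± 0.12 in the Zambian lines (SD, n = 4) and 0.99 ± 0.24 in the cosmopolitan lines (SD, n = 8), and the difference of -0.05 had an exact two-sided permutation p of 0.689 over 495 splits of the lines. Every Zambian line lay within the range of the cosmopolitan lines. Leaving out each line in turn put the difference between -0.11 and -0.01, with cosmopolitan lines of both genotypes in every case. The slope was 1.06 in C2D3, 1.13 in KL01, 1.15 in M12D3, and 1.21 in M9D3, which carry the *MtnA* deletion. It was 0.87 in C2N1, 0.64 in KL02, 0.64 in M12N3, and 1.21 in M9N1, which lack it as the Zambian lines do. The difference was not tested among nondeletion lines alone, so its sign there is not given by the values above.

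The 62 genes fell into 5 classes by the calls within each range. There were 20 called in the cosmopolitan lines alone and 20 in the Zambian lines alone, and both counts carry no test of their own beyond the interaction. A further 9 genes were called in opposite directions, 8 were called in the same direction with the larger response in the Zambian lines, and 5 with the larger response in the cosmopolitan lines. The log2 responses of the 4 Zambian lines lay wholly above or below those of the 8 cosmopolitan lines for 26 of the 62 genes. Over all tested genes 74 did so (0.67%), 42 of them above and 32 below, and 0.235% of tested genes were both called and free of overlap.

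As 4 cosmopolitan lines carry the *MtnA* deletion, the interaction was also taken among the nondeletion lines (4 Zambian against 4 cosmopolitan), where 37 genes were called, 16 of them among the 62. Of the 18 genes named below by rule, 7 were called there, namely *cwo*, *Cyp309a2*, *CG16704*, *CG5909*, *Syx18*, *Ugt37A2*, and *CG11891*, and 11 were not. Among the genes that lost their calls, the interaction was 2.03 there for *Lsp1beta*, against 2.70 over all lines. It was 0.98 against 0.90 for *BomS3*, 1.05 against 0.92 for *Smyd4-3*, 1.02 against 1.04 for *BomBc2*, and -0.77 against -0.73 for *MsrA*. *Obp83ef* was at -0.86 against -0.95, *CG33964* at -0.62 against -0.68, and *l(2)34Fd* at -0.40 against -0.38. *Uxs* was at -0.25 against -0.27, *Obp19c* at 0.64 against 0.63, and *CG15020* at 1.64 against 1.87. In this fit 4 cosmopolitan lines entered in place of 8, and the reason for the lost calls was not tested. With a genotype by treatment term in the model, 109 genes were called, 31 of them among the 62, and *Lsp1beta*, *BomBc2*, *Obp83ef*, *Uxs*, *MsrA*, and *Obp19c* lost their calls while the other 12 kept them. No sign changed among the 18 in either fit.

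The smallest adjusted p was shared by *Cyp309a2*, given further on, and *clockwork orange* (*cwo*, FBgn0259938, 3R:10388258-10400752, + strand), a transcriptional repressor of the clock. *cwo* had 87.7 to 162 CPM in Zambian stress libraries (median 128) and 66.8 to 112 CPM in Zambian control libraries (median 78.4). In the cosmopolitan lines it had 74.3 to 119 CPM under stress (median 93.3) and 76.7 to 149 CPM in controls (median 120). Stress libraries were thus mostly above controls in the Zambian lines and mostly below them in the cosmopolitan lines, with some overlap in both. The log2 fold-change was 0.57 in the Zambian and -0.33 in the cosmopolitan lines, and the interaction was 0.90 ± 0.15 (SE; edgeR adjusted p = 0.00215). By line it was 0.65, 0.08, 0.82, and 0.91 in ZI197, ZI254, ZI273, and ZI418, and between -0.63 and -0.07 in the 8 cosmopolitan lines. The line responses did not overlap, which the naming rule required of *cwo* and the other genes picked by size (13 of 18), so it supports nothing here.

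The other clock genes were not called, and 1 of 13 in the list passed the test (*cwo*), with 5 unadjusted. The list's median interaction was 0.05, against -0.001 over all tested genes. Its interactions were positive in 7 of 13, beside 49.7% of all tested genes, so the list as a whole showed no lean. The interaction was 1.39 ± 0.44 (SE; adjusted p = 0.144) for *tim*, 1.20 ± 0.41 (adjusted p = 0.203) for *vri*, 0.71 ± 0.39 (adjusted p = 0.472) for *per*, and 0.50 ± 0.18 (adjusted p = 0.248) for *Pdp1*, each of them positive as for *cwo*. *Clk*, the activator, was at -0.43 ± 0.24 (adjusted p = 0.470). These genes are named as members of the clock loop after their values were seen.

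The controls differed more than the stress libraries in these genes. *tim* had 186 to 452 CPM under stress in the Zambian lines (median 270), against 81.1 to 735 CPM in their controls (median 124), and 141 to 333 CPM under stress in the cosmopolitan lines (median 245), against 75.7 to 696 CPM in their controls (median 477). The Zambian controls were split, since 6 of 8 lay below the cosmopolitan control median and 2 above it, and the pair above was ZI197 replicate 1 with 735 CPM and ZI254 replicate 2 with 660 CPM. The same pair stood above that median for *vri* (366 and 318 CPM, with the other 6 Zambian controls at 45.2 to 130 CPM). It did so for *per* too (234 and 180 CPM, with the others at 38.0 to 44.7 CPM). *Clk* ran the other way, at 20.1 and 23.2 CPM in these libraries and 55.6 to 75.8 CPM in the remaining 6. For *cwo*, 8 of 8 Zambian controls lay below the cosmopolitan control median, but the same pair was the highest of them at 112 and 104 CPM, with the other 6 at 66.8 to 90.1 CPM. In the cosmopolitan lines, C2D3 control replicate 1 and KL02 control replicate 2 stood apart for *tim*, at 75.7 and 98.8 CPM, against 393 to 696 CPM in the other controls. All flies were kept under 14 h of light, and the hour at which each library was taken is not given in the sources used here. Its part in these values was not tested.

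**Figure D2:**
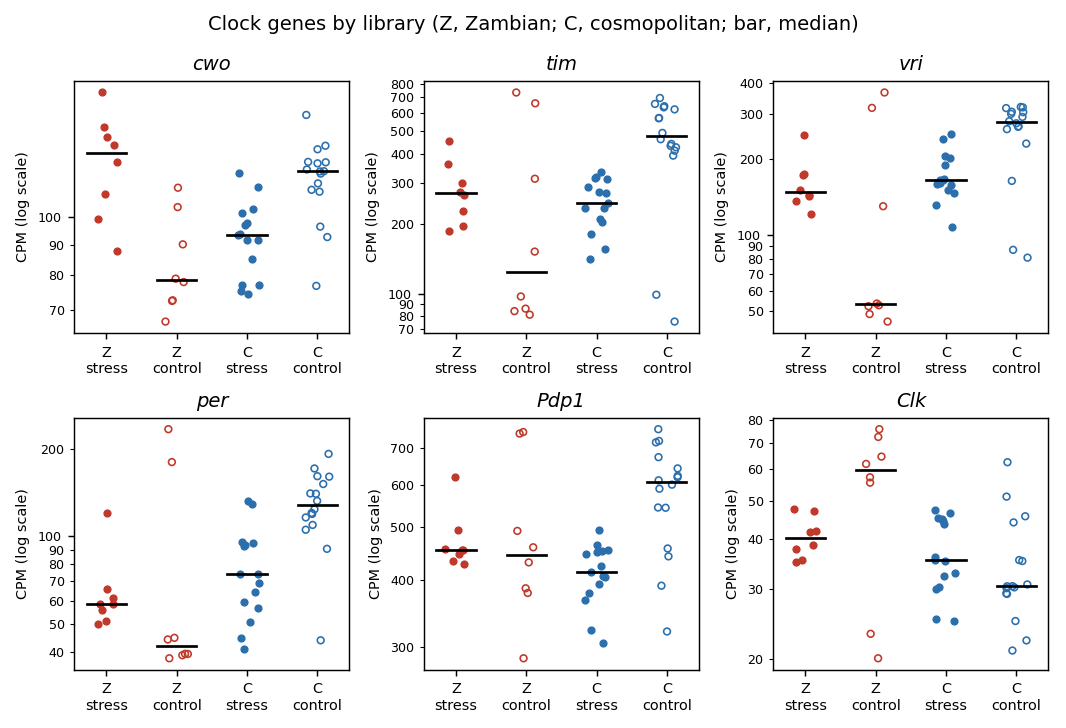
Each point is a library and its height the CPM on a log axis, with Zambian libraries in red, cosmopolitan libraries in blue, stress filled, and control open, and bars mark group medians. For *tim*, *vri*, and *per*, 6 of 8 Zambian controls lie below the median of the cosmopolitan controls and the same 2 lie above it, whereas for *cwo* all 8 lie below, with the same 2 the highest of them.

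Bomanins are short secreted peptides of the Toll immune pathway, and 2 of them were called, both with a positive interaction and a fall under stress in the cosmopolitan lines. *BomS3* (FBgn0040736, 2R:18387895-18388734, + strand) had 88.0 to 340 CPM in Zambian stress (median 169) and 107 to 263 CPM in Zambian control libraries (median 173). It had 66.7 to 152 CPM in cosmopolitan stress (median 104) and 112 to 339 CPM in cosmopolitan control libraries (median 203). The groups overlapped in the Zambian lines and only in part in the cosmopolitan lines, with log2 fold-changes of -0.08 and -0.97, and the interaction was 0.90 ± 0.20 (SE; edgeR adjusted p = 0.0242). The call was lost without ZI197 stress replicate 1, ZI273 control replicate 2, or ZI418 stress replicate 1.

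*BomBc2* (FBgn0034331, 2R:18384824-18385589, - strand) had 96.5 to 334 CPM in Zambian stress (median 178) and 101 to 503 CPM in Zambian control libraries (median 279). In the cosmopolitan lines it had 57.9 to 177 CPM under stress (median 110) and 222 to 482 CPM in controls (median 340), without overlap between treatments. The log2 fold-change was -0.58 in the Zambian and -1.62 in the cosmopolitan lines, and the interaction was 1.04 ± 0.24 (SE; edgeR adjusted p = 0.0373). It was called in 30 of the 47 fits that left out 1 library. *BomBc2* overlaps *BomS4* on the other strand, and the strand setting of the counting is not given in the sources used here, so their reads may not be separable.

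Over the 12 Bomanins tested, 11 interactions were positive and 1, *BomS4* at -0.18, was negative, with a median of 0.77. In the Zambian response 7 of 12 were called as downregulated (median -0.59), against 12 of 12 in the cosmopolitan response (median -1.27). Over all 11047 tested genes 2317 and 2986 were, and the cosmopolitan response rests on 31 libraries against 16. *BomS2* (interaction 1.00, adjusted p = 0.0538), *BomBc3* (1.20, adjusted p = 0.0777), and *BomS5* (0.92, adjusted p = 0.0777) did not pass the edgeR threshold, and DESeq2 called all 5 of these Bomanins. These peptides are encoded close together and share sequence, so their values may not be independent. Among the 15 antimicrobial peptides tested, such as attacins and cecropins, 6 interactions were positive, 9 were negative, and 0 were called by edgeR or DESeq2 (1 at an unadjusted p under 0.05). In the whole list of immune effectors and receptors 2 of 47 were called higher, 0 lower, and the median was 0.14.

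A protease gene and a protease inhibitor gene were also called. *CG16704* (FBgn0031558, 2L:3692123-3692587, - strand), which encodes a Kunitz-type protease inhibitor, had 6.82 to 86.3 CPM in Zambian stress (median 21.4) and 5.72 to 74.1 CPM in Zambian control libraries (median 25.7). It had 4.38 to 38.0 CPM in cosmopolitan stress (median 15.8) and 18.2 to 88.7 CPM in cosmopolitan control libraries (median 43.5). Levels overlapped widely between the groups, while within lines the log2 response lay between -0.73 and 0.29 in the 4 Zambian lines and between -2.33 and -1.04 in the 8 cosmopolitan lines. Its interaction was 1.30 ± 0.22 (SE; edgeR adjusted p = 0.00315).

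*CG5909* (FBgn0039495, 3R:27161158-27162911, + strand), a serine protease gene, had 26.2 to 85.3 CPM in Zambian stress (median 49.9) and 8.89 to 28.2 CPM in Zambian control libraries (median 19.2). It had 10.6 to 57.9 CPM in cosmopolitan stress (median 20.3) and 13.1 to 40.3 CPM in cosmopolitan control libraries (median 18.5). It rose in the Zambian lines (log2 fold-change 1.22) and was at 0.09 in the cosmopolitan lines (adjusted p = 0.533), with an interaction of 1.13 ± 0.20 (SE; edgeR adjusted p = 0.00458).

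Turandot genes encode secreted stress peptides under JAK-STAT control. All 5 that were tested had negative interactions, from -2.79 to -1.22. Of these, 0 were called by edgeR and 5 had an unadjusted p under 0.05, beside 1320 of all 11047 tested genes. DESeq2 called *TotA* and *TotC*. *TotA* had 83.2 to 816 CPM in Zambian stress (median 196) and 20.96 to 2629 CPM in Zambian control libraries (median 46.5). It had 25.4 to 721 CPM in cosmopolitan stress (median 418) and 7.13 to 281 CPM in cosmopolitan control libraries (median 43.7). Its log2 fold-change was 0.23 in the Zambian lines (adjusted p = 0.735) and 2.48 in the cosmopolitan lines, with an interaction of -2.26 ± 0.60 (SE; edgeR adjusted p = 0.0693). *TotC* was at -2.79 ± 0.71 (adjusted p = 0.0538). The Zambian stress libraries of *TotA* lay within the range of the Zambian controls, but their median of 196 CPM was above the control median of 46.5 CPM. The Zambian log2 fold-change of 0.23 comes from a fit to controls that reached 2629 CPM, so it does not show that *TotA* failed to rise. The cosmopolitan groups overlapped in part. The list of Turandot and JAK-STAT genes had 0 of 13 called by edgeR (8 unadjusted, 2 by DESeq2) and a median of 0.03.

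**Figure D3:**
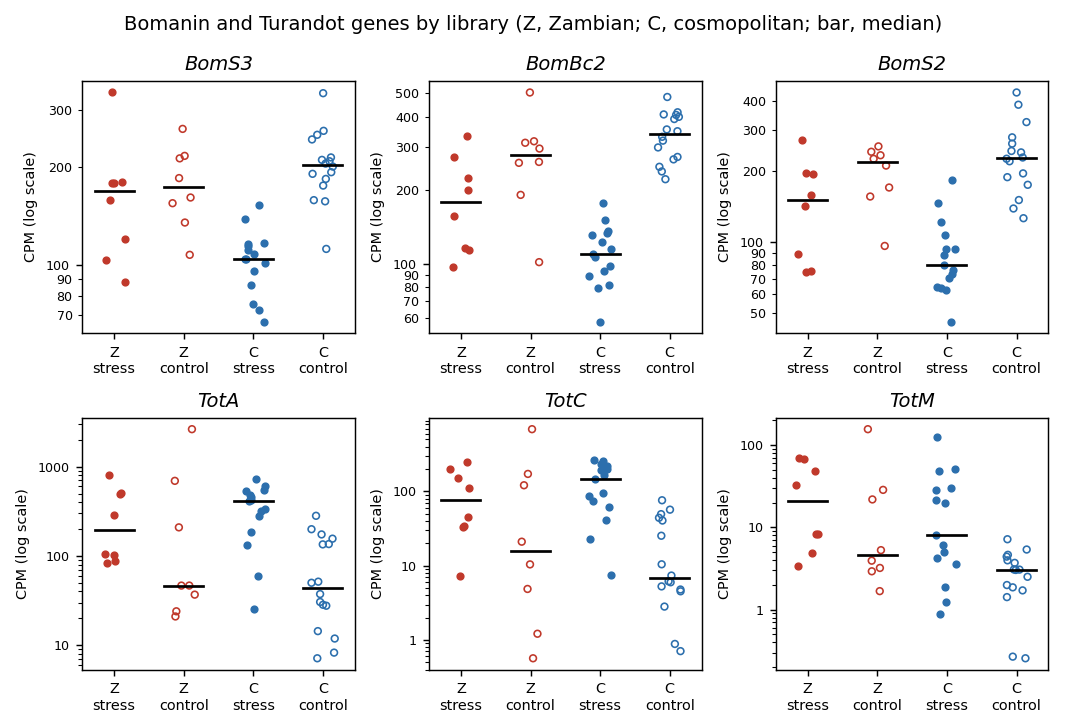
Each point is a library and its height the CPM on a log axis, with Zambian libraries in red, cosmopolitan libraries in blue, stress filled, and control open, and bars mark group medians. The stress median of *BomS3* is 169 CPM in Zambian and 104 CPM in cosmopolitan libraries, while the Zambian control libraries of *TotA* spread from 20.96 to 2629 CPM.

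Among 82 cytochrome P450 genes 1 was called by edgeR (15 unadjusted) and 3 by DESeq2, 2 of them higher in the Zambian lines. The gene called by both was *Cyp309a2* (FBgn0041337, 2L:2564886-2573037, - strand). It had 20.6 to 173 CPM in Zambian stress (median 64.7) and 4.07 to 52.97 CPM in Zambian control libraries (median 17.3). It had 10.7 to 49.4 CPM in cosmopolitan stress (median 30.8) and 14.7 to 75.2 CPM in cosmopolitan control libraries (median 26.4). The log2 response was 0.81 to 2.16 in the 4 Zambian lines, while the 8 cosmopolitan lines lay on both sides of 0, between -0.94 and 0.66. The interaction was 1.48 ± 0.24 (SE; edgeR adjusted p = 0.00215). The median over all cytochrome P450 genes was -0.04.

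*Ugt37A2* (FBgn0038082, 3R:12739642-12741417, + strand), 1 of 28 UDP-glycosyltransferase genes and the only one called by edgeR or DESeq2 (6 unadjusted), was close to absent in controls. It had 0.0248 to 1.19 CPM in Zambian stress (median 0.230) and 0 to 0.214 CPM in Zambian control libraries (median 0.0960). In the cosmopolitan lines it had 0.0529 to 8.30 CPM under stress (median 4.45) and 0 to 0.313 CPM in controls (median 0.0331). Most cosmopolitan stress libraries were above all Zambian ones, though line responses overlapped. The interaction was -4.13 ± 0.71 (SE; edgeR adjusted p = 0.00355), a size that rests on controls with few or no counts. It was -2.10 against the Cypriot lines (adjusted p = 0.463), against -4.67 and -4.69 for the German and Malaysian lines.

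*MsrA* (FBgn0000565, 3L:15511052-15513202, + strand), which repairs oxidized methionine in proteins, rose in both ranges and less so in the Zambian lines. It had 187 to 346 CPM in Zambian stress (median 262) and 70.8 to 208 CPM in Zambian control libraries (median 116). It had 166 to 637 CPM in cosmopolitan stress (median 345) and 70.3 to 121 CPM in cosmopolitan control libraries (median 91.1). The log2 fold-changes were 1.20 and 1.92, and the interaction was -0.73 ± 0.18 (SE; edgeR adjusted p = 0.0448). The response of ZI418, 2.22, lay within the cosmopolitan range of 1.55 to 2.25, and the call stood in 20 of the 47 fits without 1 library.

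In the large stress families few or no members were called. Among 35 glutathione S-transferase genes 0 were called by edgeR or DESeq2 (5 unadjusted), 18 interactions were positive, and the median was 0.05. In these genes 25 rose in the Zambian and 25 in the cosmopolitan response, beside 2627 and 3610 of all 11047 tested genes, and the medians were 1.24 in the Zambian and 1.34 in the cosmopolitan response. Individual members lay on both sides, as with *GstD5* at -2.08 ± 0.61 (SE; adjusted p = 0.106) and *GstE1* at 1.37 ± 0.45 (adjusted p = 0.177). The antioxidant and glutathione synthesis list had 1 of 26 called (*MsrA*) and a median of 0.02.

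Among 21 inducible heat-shock genes and partners, 0 were called by edgeR or DESeq2 (10 unadjusted) and 15 interactions were positive, with a median of 0.67. In the Zambian response 21 rose and in the cosmopolitan response 20, beside the same 2627 and 3610 of all tested genes. *Hsp70Aa*, one of several nearly identical copies whose reads cannot be assigned with confidence, had 192 to 3600 CPM in Zambian stress and 3.79 to 16.1 CPM in Zambian control libraries. It had 22.2 to 2442 CPM in cosmopolitan stress and 3.63 to 164 CPM in cosmopolitan control libraries. Stress libraries were above controls in the Zambian lines without overlap. The log2 fold-changes were 7.42 and 5.47, and the interaction of 1.95 ± 0.86 (SE) had an edgeR adjusted p of 0.344. The list's line values, taken as the median response less that of all tested genes, overlapped between the ranges.

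The metallothioneins, small metal-binding proteins, had 4 of 4 negative interactions and 0 called by edgeR or DESeq2 (2 unadjusted). *MtnA* itself was at -0.30 ± 0.21 (SE; adjusted p = 0.606), with log2 fold-changes of 0.97 in the Zambian and 1.26 in the cosmopolitan lines. *MtnA* libraries lay at 243 to 1486 CPM under stress in the Zambian lines and 207 to 522 CPM in their controls, against 387 to 1440 CPM and 192 to 652 CPM in the cosmopolitan lines. Such a p does not show that the responses were equal.

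*Lsp1beta* (FBgn0002563, 2L:898500-901316, + strand), a larval serum storage protein of the fat body, fell less in the Zambian lines. It had 0.217 to 4.29 CPM in Zambian stress (median 1.71) and 0.0739 to 15.2 CPM in Zambian control libraries (median 4.56). It had 0.0529 to 25.8 CPM in cosmopolitan stress (median 2.75) and 0.562 to 473 CPM in cosmopolitan control libraries (median 26.1). Controls were mostly lower in the Zambian lines, and all groups overlapped. The log2 fold-changes were -1.31 and -4.01, and the interaction was 2.70 ± 0.53 (SE; edgeR adjusted p = 0.00928). By line the log2 response was -1.45, -1.21, -1.29, and 0.90 in ZI197, ZI254, ZI273, and ZI418, against -5.66 to -2.11 in the cosmopolitan lines. The value of ZI418 rests on 0.117 and 0.0739 CPM in controls and 0.217 CPM in 1 stress library. The interaction was 3.22 against the German lines (edgeR adjusted p = 0.00173). It was 1.75 against the Cypriot lines (adjusted p = 0.401) and 2.12 against the Malaysian lines (adjusted p = 0.254). The related *Lsp2* had an interaction of 1.29 ± 0.43 (SE; adjusted p = 0.188) and is given here after its value was seen. Among 37 feeding state and fat metabolism genes 0 were called by edgeR (5 unadjusted, 1 by DESeq2), with a median of -0.01.

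The summed markers of other tissues stand beside these fat body genes. The 8 fat body and oenocyte markers summed to 3026 to 6986 CPM in Zambian stress and 4608 to 18380 CPM in Zambian control libraries, against 2706 to 5713 CPM in cosmopolitan stress and 6149 to 15380 CPM in cosmopolitan control libraries. Of these 8, 3 had positive interactions (median -0.06). Neuron markers were positive in 12 of 12 (median 0.17), glia in 7 of 8 (median 0.38), and hemocytes in 7 of 8 (median 0.31). Muscle markers were positive in 9 of 11 (median 0.13), but gut markers in only 5 of 13 (median -0.19). In each of these marker lists 0 were called by edgeR or DESeq2, with 3, 1, 5, 1, 0, and 1 unadjusted in that order. Summed gut markers had medians of 200 and 90.0 CPM in Zambian stress and control libraries, against 273 and 55.2 CPM in the cosmopolitan ones. Glia markers summed to 2297 to 3830 CPM in Zambian stress and 2206 to 4618 CPM in Zambian control libraries, against 1579 to 2735 CPM in cosmopolitan stress and 2296 to 4002 CPM in cosmopolitan control libraries. Their part in the interactions was not tested, and in whole heads fewer cells of a type and less RNA per cell cannot be told apart.

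Opposite responses, with both ranges called, were found for *cwo* and 8 others. *CG15020* (FBgn0035543, 3L:4421662-4426621, + strand) had 0.705 to 1.88 CPM in Zambian stress (median 1.09) and 0.280 to 0.959 CPM in Zambian control libraries (median 0.669). It had 0.247 to 3.90 CPM in cosmopolitan stress (median 1.43) and 0.576 to 7.37 CPM in cosmopolitan control libraries (median 2.13). It was low in all groups, with log2 fold-changes of 0.72 and -1.15 and an interaction of 1.87 ± 0.34 (SE; edgeR adjusted p = 0.00601), and line responses did not overlap.

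*CG11891* (FBgn0039309, 3R:25270209-25273267, + strand) had 5.73 to 15.5 CPM in Zambian stress (median 10.5) and 9.52 to 46.5 CPM in Zambian control libraries (median 31.7). It had 5.50 to 28.8 CPM in cosmopolitan stress (median 15.7) and 4.23 to 19.2 CPM in cosmopolitan control libraries (median 10.5). Its Zambian controls stood mostly above the other groups, and its interaction was -1.83 ± 0.34 (SE; edgeR adjusted p = 0.00601). Line responses overlapped, at -1.68 to -0.67 in the Zambian lines and -1.08 to 1.94 in the cosmopolitan lines. The Cypriot lines C2D3 and C2N1 were at -1.08 and -0.05, and against Cyprus alone the interaction was -0.64 (adjusted p = 0.71). Its interval equals that of *CG11889* on the same strand, which had an interaction of -1.02 (adjusted p = 0.0448), so reads of the pair may not be separable.

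*CG33964* (FBgn0053964, 2R:12182639-12185506, + strand) had 2.47 to 3.56 CPM in Zambian stress (median 3.17) and 2.88 to 4.39 CPM in Zambian control libraries (median 3.90). It had 3.20 to 11.2 CPM in cosmopolitan stress (median 4.67) and 2.67 to 10.9 CPM in cosmopolitan control libraries (median 3.55). The log2 response was -0.40 to -0.16 in the 4 Zambian lines and 0.23 to 0.68 in the 8 cosmopolitan lines, with an interaction of -0.68 ± 0.12 (SE; edgeR adjusted p = 0.00458). It shares its interval and strand with *CG13175*, which was called at -0.55 (adjusted p = 0.0448).

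*Smyd4-3* (FBgn0033633, 2R:11405597-11408079, + strand), a gene of the SET and MYND domain family, had 1.71 to 11.7 CPM in Zambian stress (median 3.13) and 1.01 to 4.58 CPM in Zambian control libraries (median 2.37). It had 1.58 to 3.33 CPM in cosmopolitan stress (median 2.62) and 2.07 to 4.52 CPM in cosmopolitan control libraries (median 3.05). The log2 fold-changes were 0.61 and -0.32 and the interaction was 0.92 ± 0.23 (SE; edgeR adjusted p = 0.0448), but the call stood in only 15 of the 47 fits without 1 library. The largest line value was 1.61 in ZI197, which has 1 stress library.

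**Figure D4:**
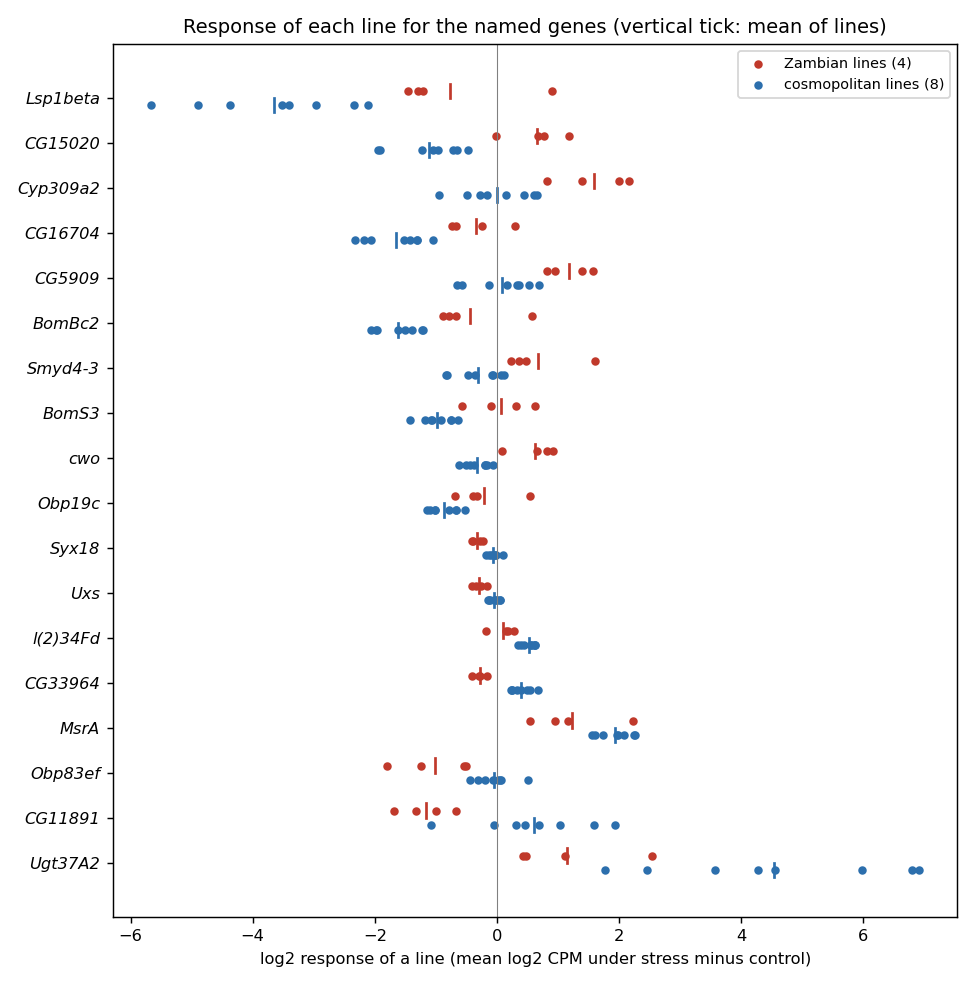
Each row is one of the 18 named genes and each point a line, placed by its log2 response (mean log2 CPM under stress less control), with the 4 Zambian lines in red above the 8 cosmopolitan lines in blue, and vertical ticks mark the means of lines. The lines do not overlap for 14 of the 18 genes, for 13 of which the naming rule required it, against 26 of the 62 called and 0.67% of all tested genes, and they overlap for *MsrA*, *Ugt37A2*, *Obp19c*, and *CG11891*.

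Of the 2 odorant-binding protein genes called, 1 went each way. *Obp83ef* (FBgn0046876, 3R:6109642-6111034, - strand) had 1.30 to 3.87 CPM in Zambian stress (median 1.96) and 1.40 to 5.50 CPM in Zambian control libraries (median 4.20), against 1.51 to 4.05 CPM in cosmopolitan stress (median 2.63) and 1.57 to 3.83 CPM in cosmopolitan control libraries (median 2.52). It fell in the Zambian lines (adjusted p = 5.48e-05), against a log2 fold-change of -0.05 in the cosmopolitan lines (adjusted p = 0.758), with an interaction of -0.95 ± 0.23 (SE; edgeR adjusted p = 0.0496), and it overlaps *Obp83cd* on the other strand. *Obp19c* (FBgn0031111, X:20417921-20418964, - strand) had 2.58 to 9.21 CPM in Zambian stress (median 3.48) and 3.81 to 6.32 CPM in Zambian control libraries (median 5.36), against 2.38 to 7.35 CPM in cosmopolitan stress (median 4.30) and 5.09 to 11.8 CPM in cosmopolitan control libraries (median 7.39). Its interaction was 0.63 ± 0.16 (SE; edgeR adjusted p = 0.0496). These calls stood in 14 and 13 of the 47 fits without 1 library.

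3 genes with small differences completed the set that met the rule. *l(2)34Fd* (FBgn0261535, 2L:14352594-14355085, - strand) had 10.1 to 13.3 CPM in Zambian stress and 8.96 to 13.9 CPM in Zambian control libraries, against 9.09 to 22.4 CPM in cosmopolitan stress and 7.29 to 15.2 CPM in cosmopolitan control libraries. Its interaction was -0.38 ± 0.08 (SE; edgeR adjusted p = 0.0280), and the call was lost without ZI197 stress replicate 1, ZI273 control replicate 2, or ZI273 stress replicate 2. It overlaps *CG43052* on the other strand.

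*Uxs* (FBgn0035848, 3L:8180923-8183369, + strand), which makes UDP-xylose, had 20.5 to 24.6 CPM in Zambian stress and 23.6 to 30.3 CPM in Zambian control libraries, against 21.5 to 31.4 CPM in cosmopolitan stress and 23.3 to 29.7 CPM in cosmopolitan control libraries. Its interaction was -0.27 ± 0.06 (SE; edgeR adjusted p = 0.0219), and the call was lost without ZI273 control replicate 2. *Syx18* (FBgn0039212, 3R:24623802-24625562, - strand), a SNARE protein of the endoplasmic reticulum, had 15.2 to 19.2 CPM in Zambian stress and 18.6 to 23.0 CPM in Zambian control libraries, against 15.2 to 27.4 CPM in cosmopolitan stress and 16.8 to 28.7 CPM in cosmopolitan control libraries. Its interaction was -0.24 ± 0.06 (SE; edgeR adjusted p = 0.0448), called in 16 of the 47 fits. Both fell in the Zambian lines and overlap another gene on the other strand, *ERR* and *mld* in that order.

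Of the other 44 called genes, some are named here after their values were seen. *whd*, the carnitine palmitoyltransferase that admits fatty acids to mitochondria, had medians of 347 CPM in Zambian stress and 220 CPM in Zambian control libraries, against 253 and 241 CPM in cosmopolitan stress and control libraries. Its interaction was 0.51 ± 0.11 (SE; edgeR adjusted p = 0.0238). *Pdk*, the kinase that inactivates pyruvate dehydrogenase, had medians of 567 and 280 CPM in Zambian stress and control libraries, against 331 and 274 CPM in the cosmopolitan ones, and an interaction of 0.54 ± 0.13 (adjusted p = 0.0448). Both rose in the Zambian lines (0.59 for *whd* and 0.82 for *Pdk*), against 0.08 and 0.28 in the cosmopolitan lines, and line responses overlapped for both. The call of *whd* stood in 53 and that of *Pdk* in 24 of 59 fits without 1 library or line, and in 7 and 4 of 12 other settings.

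*dnr1*, a repressor of the Imd immune pathway, had an interaction of 0.55 ± 0.12 (SE; edgeR adjusted p = 0.0219), with log2 fold-changes of 0.54 and -0.01 and no overlap of lines. *phu* had the largest positive value, 2.70 ± 0.60 (adjusted p = 0.0266), with lines that overlapped. *arg*, the arginase gene, rose less in the Zambian lines (1.77 against 3.04; adjusted p = 0.0266), and *Aldh7A1*, an aldehyde dehydrogenase gene, fell more (-0.84 against -0.29; adjusted p = 0.0283). The most negative values, -4.19 for *CG33346* and -3.93 for *plu*, rested on group medians below 0.2 CPM. Of the 62 genes, 13 had a mean log2 CPM under 1, and 10 of those were lower in the Zambian lines. Another gene overlapped 26 of the 62, in 9 cases on the same strand.

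The calls were spread over the large chromosome arms. The share of tested genes called was 0.557% on 2L, 0.699% on 2R, 0.563% on 3L, 0.615% on 3R, and 0.335% on X.

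The remaining lists had few or no calls. Proteasome subunits, which degrade tagged proteins, had a positive interaction in 1 of 40, with 0 called by edgeR or DESeq2 (9 unadjusted) and a median of -0.18. Their median log2 fold-change was 0.14 in the Zambian and 0.30 in the cosmopolitan response. Cytosolic ribosomal proteins were positive in 5 of 87 (median -0.10) and mitochondrial ribosomal proteins in 18 of 72 (median -0.07), each with 0 called by edgeR or DESeq2 (1 and 3 unadjusted). The JNK pathway and cell death list was positive in 20 of 23 (median 0.15), with 0 called by edgeR, 5 unadjusted, and 1 by DESeq2. Members of these complexes vary together, so such counts are no measure of certainty. In each of these lists the line medians, from which the median of all genes was taken, overlapped between the ranges. For the proteasome they ran from -0.09 to 0.47 in the Zambian lines and from 0.08 to 0.65 in the cosmopolitan lines.

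Lists with medians nearer 0 were the respiratory chain and ATP synthase (-0.02 over 83 genes), phototransduction (-0.06 over 29), glycolysis and sugar storage (0.07 over 17), autophagy (0.03 over 23), the unfolded protein and integrated stress response (-0.07 over 18), and metallothionein, copper, and iron genes (0.01 over 14). Each had 0 called by edgeR, with 1, 4, 2, 1, 2, and 2 unadjusted in that order, and 1 of them, in glycolysis and sugar storage, was called by DESeq2. Cuticle proteins (0.15 over 54), juvenile hormone and ecdysone genes (0.08 over 20), and 5 activity-regulated genes (0.34, 5 of 5 positive) had 0 called by edgeR as well, with 9, 4, and 1 unadjusted, and DESeq2 called 1 cuticle gene. The genes that the study names in its text had 0 of 41 called by edgeR or DESeq2 (9 unadjusted) and a median of 0.07.

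**Figure D5:**
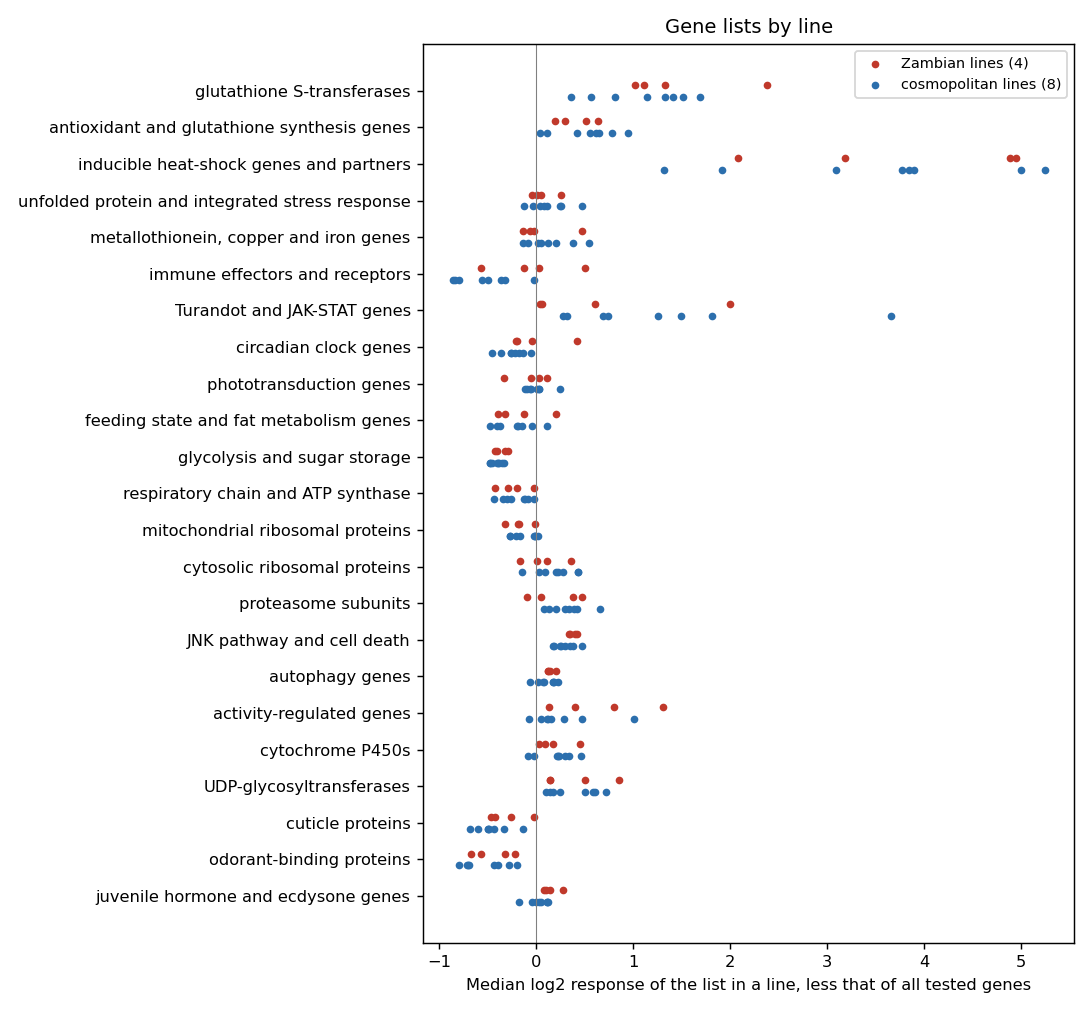
Each row is a gene list and each point a line, placed by the list's median log2 response less that of all tested genes, with the 4 Zambian lines in red above the 8 cosmopolitan lines in blue. The ranges overlap in every list shown, as for the proteasome at -0.09 to 0.47 in Zambian and 0.08 to 0.65 in cosmopolitan lines.

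The interaction was also taken against each cosmopolitan population alone. These 3 contrasts share the Zambian libraries, so they are not independent. Against the 4 German lines 99 genes were called (0.896%), 44 higher and 55 lower in the Zambian lines. Against the 2 Cypriot lines 24 were called (0.217%), 10 higher and 14 lower, and against the 2 Malaysian lines 33 (0.299%), 25 higher and 8 lower. *cwo* had 0.95, 0.93, and 0.78 against Germany, Cyprus, and Malaysia (adjusted p = 0.00420, 0.0380, and 0.0862), and *Cyp309a2* had 1.54, 1.52, and 1.35 (adjusted p = 0.00447, 0.0412, and 0.0740). *CG16704* had 1.46, 1.37, and 0.93 (adjusted p = 0.00225, 0.0380, and 0.167), and *CG33964* had -0.71, -0.78, and -0.53 (adjusted p = 0.00752, 0.0380, and 0.172). *BomS3* had 0.96, 0.68, and 1.00 (adjusted p = 0.0352, 0.442, and 0.101). Over all tested genes, 0 were called by edgeR against all 3 populations with 1 sign (105 unadjusted), and DESeq2 called 4, *cwo* and *Cyp309a2* among them. Fewer lines stood behind the Cypriot and Malaysian contrasts.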

How the data were processed

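Per the study's methods, poly-A RNA was sequenced and reads were mapped to the FlyBase transcriptome with NextGenMap. The labels name DESeq2 1.28.1 and R 4.0.0. The values are raw counts per gene as deposited by the authors, without normalization. The counting program, strand setting, and treatment of multiply mapped reads are not given in the sources used here. Groups were taken from the sample titles. Genes were placed on the Release 6 assembly by an annotation that matched 13908 identifiers, 43 by CG number, and left 6 without a match.

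Counts were analysed in R 4.3.3 with edgeR 4.0.16 (TMM, filterByExpr on range and treatment, and two-sided quasi-likelihood tests) with line and treatment within range in the model, p adjusted by Benjamini-Hochberg across every gene tested, and a threshold of 0.05. This term was not fitted in the study. Standard errors are the log2 fold-change over the square root of F. The response of a line is its mean log2 CPM (prior count of 2) under stress less control. The exact two-sided permutation test of the slope took 4 lines against 8. The lines of M9, of M12, and of C2 come in pairs, so 4 backgrounds against 5 was also run (limma 3.58.1). Nothing in the sources shows that libraries of a line came from separate cultures beyond the study's term biological replicates.

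Named genes were the 8 largest interactions in each direction among called genes with a mean log2 CPM of at least 1 and lines that did not overlap (5 were found in the negative direction), up to 2 called members of each list, and up to 4 with opposite calls. The comparison, lists, and rules were chosen with earlier results of these data known. The procedure was tested on simulated counts that held no spread between lines in level or response. That test therefore does not bear on the spread between lines. The library left out stood apart in expression, and the study's text does not give the replicate it excluded.

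The alternatives were DESeq2 1.42.0, RLE size factors, the replicate number as a block, no filter on low counts, use of all 48 libraries, line by treatment groups, line or background as the unit, nondeletion lines, a genotype term, no Malaysian lines, a threshold of 0.01, and each library or line left out. A fit without the 3 lines that have 1 stress library was added after the data had been seen. Promoter and protein sequences were not used here.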

Additional observations from a re-analysis of the deposited data

Results flagged for a closer look

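In 38 groups of Zambian or cosmopolitan lines checked for a line far from its group by Dixon's test, 2 stood out, and chance alone gives about 1 in 20. They were ZI418 for *Lsp1beta*, at a log2 response of 0.90 against -1.45 to -1.21 in the other Zambian lines, and ZI197 for *BomBc2*, at 0.58 against -0.88 to -0.68. Each of these lines has 1 stress library, and *Lsp1beta* lay at 0.0739 to 0.217 CPM in the ZI418 libraries.

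The 18 named genes were chosen because the interaction test called them, so their differences between the ranges are given as a description. The Zambian less cosmopolitan log2 response was 2.70 for *Lsp1beta*, 1.87 for *CG15020*, 1.48 for *Cyp309a2*, 1.30 for *CG16704*, 1.13 for *CG5909*, 1.04 for *BomBc2*, 0.92 for *Smyd4-3*, 0.90 for *BomS3* and for *cwo*, and 0.63 for *Obp19c*. It was -0.24 for *Syx18*, -0.27 for *Uxs*, -0.38 for *l(2)34Fd*, -0.68 for *CG33964*, -0.73 for *MsrA*, -0.95 for *Obp83ef*, -1.83 for *CG11891*, and -4.13 for *Ugt37A2*.

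The M9N1 stress library that was left out held 3345 CPM on the summed male reproductive tract markers, above the 18.1 to 35.1 CPM of the control libraries.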

How the results depend on the processing

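The count of 62 called genes (35 higher, 27 lower) became 161 (92 and 69) with DESeq2. It became 310 (196 and 114) with each line and treatment its own group. That fit gave every line its own stress effect, so spread between lines in response did not enter it. The count was 109 (91 higher) with a genotype by treatment term. It became 40 (16 lower) with no filter on low counts, 32 (22 and 10) with all 48 libraries, 37 (8 lower) in nondeletion lines only, 34 (10 higher) without the 3 lines with 1 stress library, 12 (8 and 4) at a threshold of 0.01, and 0 with line or background as the unit. Of the 62, DESeq2 shared 62, the line by treatment groups 57, the genotype term 31, the nondeletion lines 16, and the fit without the 3 lines 17. Without the Malaysian lines 54 genes were called (26 higher, 28 lower), and 32 of them were among the 62. *BomS3*, *Smyd4-3*, *Obp83ef*, *Syx18*, *MsrA*, and *Obp19c* lost their calls in that fit. The difference between replicates 1 and 2 in controls correlated with that under stress at -0.06 to 0.26 in 9 lines. The 3 lines with 1 stress library could not be checked, so it is not settled whether replicate numbers pair libraries. With the number as a block 4 genes were called (2 higher, 2 lower), and 15 of the 18 named genes lost their call. Against Germany, Cyprus, and Malaysia DESeq2 called 216, 69, and 123 genes, and with all 48 libraries 12 and 18 were called against Cyprus and Malaysia.

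Without 1 library the count lay between 27 and 98 (14 to 47 higher, 8 to 52 lower), and without 1 line between 26 and 86 (14 to 59 higher, 9 to 41 lower). It moved by over 1.5 times for 12 of 47 libraries, to 27 without ZI273 control replicate 2, 33 without ZI418 control 1 or stress 1, 35 and 36 without M12D3 stress 1 and 2, 36 without M9D3 control 2, 37 without ZI418 control 2, 38 without ZI197 control 2, 39 without ZI254 stress 3, 41 without M12N3 stress 1 or ZI273 control 1, and 98 without M12N3 stress 2. It did so for 5 of 12 lines, to 26 without ZI273, 29 without M12D3, 32 without ZI418, and 41 without M9N1 or M9D3. The cause was not tested.

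No named gene changed sign under any alternative run. *cwo*, *Cyp309a2*, and *CG5909* were called in 9 of 12 other settings and without any 1 library or line, and their adjusted p reached 0.355, 0.581, and 0.674 at most. The few lines per range limit what can be resolved.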
